A study of Mus musculus with 9 samples.

Results

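The glycolysis and hypoxia response genes examined here were 37 genes of the mouse colon, 23 of which carry out, feed or drain glycolysis and 14 of which sense oxygen or are known targets of the hypoxia-inducible factors (HIFs). They were chosen by symbol, and the symbols matched 38 of the 21959 rows of the deposited count table, because Aldoa occupied 2 rows. Of these rows, 37 were among the 14921 that passed the filter on low counts, 1 for every member. The row that failed was the second row of Aldoa (ENSMUSG00000114515), with 0 to 15 reads per library. RNA of wild-type mouse colon was sequenced in 9 libraries. The CDs group was 3 mice that received dextran sulfate sodium (DSS), a polymer that injures the colon lining, together with carbon dots prepared from lotus node charcoal. The Model group was 3 mice that received DSS without carbon dots, and the Blank group was 3 untreated mice. Carbon dots were thus not measured without DSS, and dose, schedule, age, sex and collection day were not stated in the labels.

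Glycolysis splits glucose into pyruvate in the cytosol and yields ATP without oxygen. Lactate dehydrogenase and the monocarboxylate transporters then allow lactate to leave the cell. When oxygen is low, the prolyl hydroxylases no longer mark HIF proteins for destruction, and HIF binds short DNA elements near genes of glucose uptake, glycolysis, acid handling and mitophagy. The colon lining is a tissue of low oxygen on its luminal side, HIF is known for protecting its barrier, and activated neutrophils and macrophages depend strongly on glycolysis. HIF proteins are controlled mainly by their breakdown, which transcript counts do not measure.

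The libraries held 13868864 to 19940300 counted reads, a depth at which 3 reads, the most that a count of 0 allows, amount to 0.150 to 0.216 CPM, the read count scaled to library size. That limit covers counting error only. The 37 members together took 0.499% to 0.729% of the reads. Values below are CPM after TMM scaling, in the order of replicates 1, 2 and 3, unless a sentence names FPKM, which is also scaled to gene length. Fold changes are log2 ratios of fitted group means with their standard error (SE), and a gene counts as called where its edgeR adjusted p is under 0.05. In the deposited coordinates 9 members share positions with another gene (Hif1a, Hk3, Pfkm, Pfkp, Aldoa, Tpi1, Gapdh, Slc16a3 and Ankrd37), and their counts are uncertain by the reads assigned to it. Reads of mitochondrial genes made up 3.48% to 5.80% of the total in CDs and 3.81% to 4.93% in Model, against 6.60% to 6.67% in Blank. Several libraries stood apart. Transcripts of the exocrine pancreas summed to 7223 CPM in Model 1, to 61272 CPM in Model 3 and to 268.2 CPM in CDs 1, against 3.28 CPM in Model 2. Prostate transcripts summed to 1626 CPM in Blank 2 and 292.3 CPM in Blank 3, against 83.5 CPM in Blank 1. The sums were 150.6 to 287.3 CPM in CDs and 161.8 to 249.4 CPM in Model. Spink1, a gene in this sum that was present in every library, made up 81.3 CPM of the Blank 1 value. Pbsn, another gene in the sum, measured 894.7 CPM in Blank 2, 112.7 CPM in Blank 3 and 0 CPM in Blank 1. The sum of 10 neutrophil markers was 1289, 584.8 and 602.3 CPM in CDs and 427.1, 2647 and 646.4 CPM in Model, against 77.1 to 94.8 CPM in Blank.

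Measured per length, the glycolytic members spanned more than 2 orders of magnitude. In Blank, the mean level was highest for Ldha, which turns pyruvate into lactate, at 199 ± 21.3 FPKM (SD, n = 3), and lowest for Hk3, a hexokinase of myeloid cells, at 0.737 ± 0.206 FPKM. Among oxygen-sensing and HIF target members the mean Blank level was highest for Hif1a, the oxygen-regulated HIF subunit, at 40.0 ± 0.869 FPKM, and lowest for P4ha2, a collagen prolyl hydroxylase, at 1.30 ± 0.158 FPKM. The summed level of the 23 glycolytic members was 4668, 4769 and 4831 CPM in CDs, 4670, 5283 and 4123 CPM in Model and 4391, 4232 and 4643 CPM in Blank, with overlapping groups. The summed level of the 14 oxygen-sensing and HIF target members was 1335, 1275 and 1170 CPM in CDs and 1362, 1615 and 1302 CPM in Model. Both lay above the 982.9, 950.3 and 1018 CPM of Blank. Hif1a and Epas1, which encode HIF subunits, weighed most in these sums. Hif1a measured 465.8, 441.5 and 455.6 CPM in Model and 248, 238.9 and 243.8 CPM in Blank. Epas1 measured 288.9, 352.7 and 312.6 CPM in Model and 212.3, 186.6 and 194.8 CPM in Blank. The sums thus do not show that the other members as a set lay above Blank.

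The first comparison, Model against Blank, addresses what DSS colitis did to these genes. Of the 23 glycolytic members, 8 rose (34.8%) and 2 fell (8.70%), beside 24.5% of all tested genes that rose and 19.6% that fell. Those that rose were the glucose transporters Slc2a1 and Slc2a3, Hk3, Pfkfb3, Eno1, Eno2, Ldhb and the lactate transporter Slc16a3. Pfkl and Aldoc fell. Every Model library exceeded every Blank library for 9 members and lay below every Blank library for 4, beside 30.0% and 31.0% of all tested genes. The 13 members not called had log2 fold changes between -0.39 and 0.29. The median log2 fold change over the 23 members was 0.15, beside -0.03 over all tested genes. In bulk tissue, more cells of a type and more RNA per cell cannot be told apart, and likewise for fewer cells and less RNA.

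At the entry of the pathway, Slc2a1 encodes GLUT1, the broadly expressed glucose transporter, and Slc2a3 encodes GLUT3, a high-affinity transporter of neurons and leukocytes. Slc2a1 measured 118, 103 and 125 CPM in CDs, 129, 138 and 114 CPM in Model and 101, 89.9 and 111 CPM in Blank. The Model libraries were all above the Blank libraries, by a small margin, and CDs overlapped both (Model against Blank log2 fold change 0.34 ± 0.12 SE, edgeR adjusted p = 0.0469). Slc2a3 measured 32.0, 19.9 and 17.8 CPM in CDs, 14.1, 37.3 and 23.6 CPM in Model and 6.62, 5.35 and 5.09 CPM in Blank. All 6 libraries from DSS-treated mice exceeded the Blank libraries, and Model 2 was the highest (Model against Blank log2 fold change 2.14 ± 0.37 SE, edgeR adjusted p = 0.00231). At the exit, Slc16a3 encodes the monocarboxylate transporter MCT4, which exports lactate. Slc16a3 measured 32.3, 19.1 and 18.5 CPM in CDs, 16.6, 44.5 and 24.3 CPM in Model and 6.94, 5.49 and 6.57 CPM in Blank. Again Model 2 was the highest library and every library from a DSS-treated mouse lay above Blank (Model against Blank log2 fold change 2.17 ± 0.37 SE, edgeR adjusted p = 0.00231). Slc16a1, another lactate transporter and not a member, was more abundant and went the other way (named after its values were seen). It measured 176, 344 and 400 CPM in CDs, 276, 207 and 184 CPM in Model and 493, 488 and 450 CPM in Blank (Model against Blank log2 fold change -1.10 ± 0.28 SE, edgeR adjusted p = 0.0135).

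The hexokinases trap glucose in the cell by phosphorylation. Hk3 measured 30.0, 18.1 and 17.1 CPM in CDs, 13.3, 19.7 and 19.6 CPM in Model and 3.47, 3.02 and 1.92 CPM in Blank. The groups given DSS overlapped each other and neither overlapped Blank (Model against Blank log2 fold change 2.64 ± 0.31 SE, edgeR adjusted p = 4.67e-04). Hk1, the housekeeping form, averaged 178 ± 29.4 CPM in Model and 233 ± 22.4 CPM in Blank (SD, n = 3 each), and Hk2, the inducible form bound to mitochondria, averaged 336 ± 123 CPM in Model and 302 ± 30.2 CPM in Blank. Neither was called (Hk1 log2 fold change -0.39 ± 0.20 SE, edgeR adjusted p = 0.141, Hk2 log2 fold change 0.15 ± 0.28 SE, edgeR adjusted p = 0.684). Per length, Hk3 made up 3.47% to 8.69% of the 3 hexokinase members in Model and 0.647% to 1.17% in Blank, and Hk2 was the main hexokinase transcript in every library of both groups. Gpi1, which isomerizes glucose 6-phosphate, was not called (log2 fold change -0.25 ± 0.14 SE, edgeR adjusted p = 0.177).

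Phosphofructokinase commits sugar to glycolysis, and its liver, platelet and muscle subunits are encoded by Pfkl, Pfkp and Pfkm. Pfkl measured 60.5, 81.4 and 87.3 CPM in CDs, 70.7, 77.6 and 64.4 CPM in Model and 102, 103 and 115 CPM in Blank. The Model libraries were all below the Blank libraries (Model against Blank log2 fold change -0.59 ± 0.14 SE, edgeR adjusted p = 0.0102). Pfkp and Pfkm were not called, with log2 fold changes of -0.06 and 0.10. Per length, Pfkl took 34.6% to 36.7% of the 3 subunit transcripts in Model and 44.2% to 47.2% in Blank, and Pfkp took 43.4% to 45.5% in Model and 37.1% to 42.0% in Blank. Per length, the most abundant subunit transcript was thus Pfkp in every CDs and Model library and Pfkl in every Blank library. In CPM, Pfkp was above Pfkl in every library of all groups, with Pfkp at 195.7, 175.3 and 181.5 CPM in Blank. The ranking in Blank thus depends on the scaling to gene length. Pfkfb3 and Pfkfb4 encode bifunctional enzymes that set the level of fructose 2,6-bisphosphate, the strongest activator of phosphofructokinase, and Pfkfb3 is the form with the highest kinase activity. Pfkfb3 measured 175, 99.3 and 74.0 CPM in CDs, 113, 111 and 115 CPM in Model and 20.4, 22.2 and 14.8 CPM in Blank. Every library from a DSS-treated mouse was above every Blank library, with the widest spread in CDs (Model against Blank log2 fold change 2.56 ± 0.30 SE, edgeR adjusted p = 4.67e-04). Pfkfb4 was not called (log2 fold change -0.24 ± 0.17 SE, edgeR adjusted p = 0.269), and the ratio of Pfkfb3 to Pfkfb4 in FPKM averaged 2.17 ± 1.36 in CDs, 2.58 ± 0.281 in Model and 0.373 ± 0.105 in Blank (SD, n = 3 each).

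**Figure D1:**
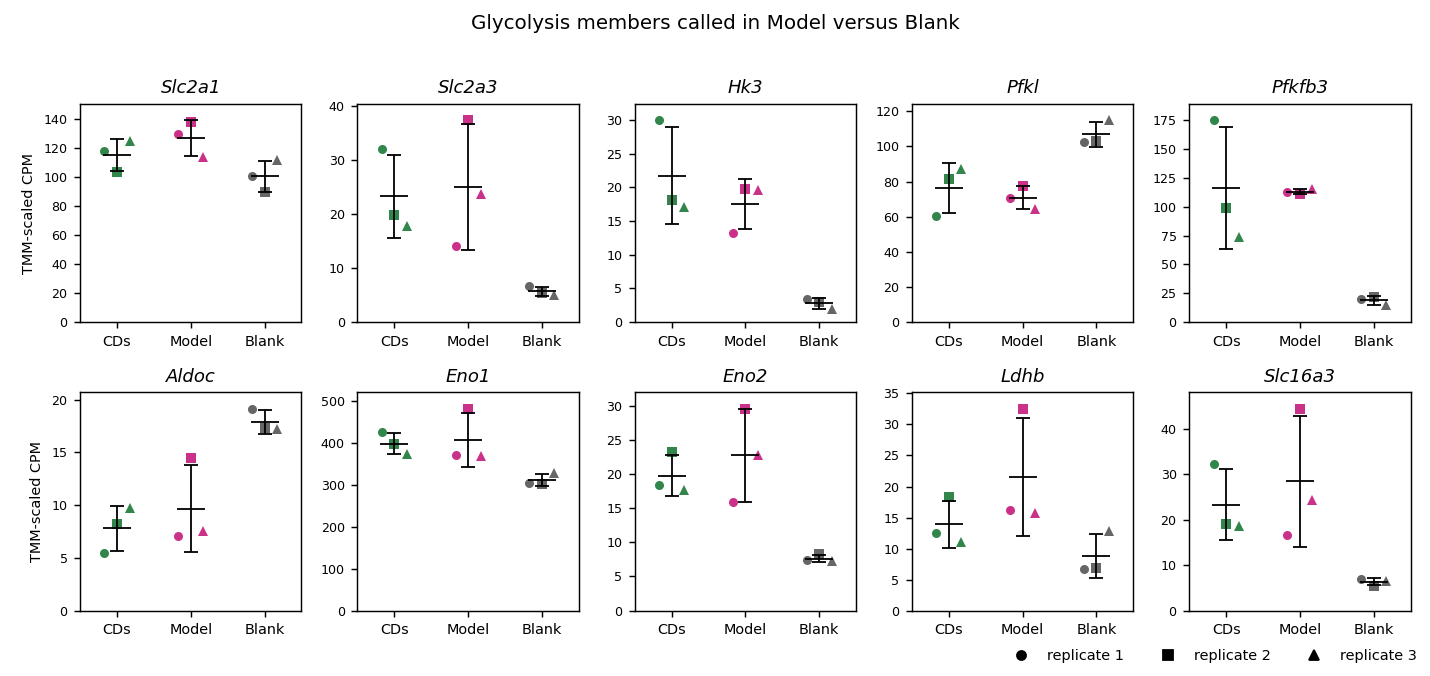
TMM-scaled CPM of the 10 glycolytic members called in Model against Blank, by group on the horizontal axis (CDs, Model, Blank). Each symbol is 1 library, with its shape giving the replicate number, and bars give the mean and SD. Model 2 is the highest Model library for 7 of the 8 genes that rose, and the Blank libraries lie at 5.09 to 6.62 CPM for Slc2a3 and at 6.75 to 12.8 CPM for Ldhb.

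In the middle of the pathway most transcripts stayed within narrow limits. Aldolase splits the 6-carbon sugar, and its brain form Aldoc measured 5.50, 8.25 and 9.70 CPM in CDs, 7.04, 14.4 and 7.51 CPM in Model and 19.2, 17.3 and 17.2 CPM in Blank. The CDs and Model libraries lay below Blank, with Model 2 the nearest to it (Model against Blank log2 fold change -0.88 ± 0.30 SE, edgeR adjusted p = 0.0389). Aldoa, the main aldolase, averaged 423 ± 70.1 CPM in Model and 427 ± 34.8 CPM in Blank and was not called (log2 fold change -0.01 ± 0.19 SE, edgeR adjusted p = 0.956). Tpi1, Gapdh, Pgk1 and Pgam1, which carry triose phosphates on to 2-phosphoglycerate, were also not called, with log2 fold changes of -0.32, 0.29, 0.18 and 0.06. Gapdh is a common reference gene in PCR work, and it measured 169, 164 and 177 CPM in CDs, 155, 227 and 154 CPM in Model and 162, 153 and 123 CPM in Blank. The Model and Blank ranges of Gapdh overlapped.

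Enolase makes phosphoenolpyruvate. The ubiquitous form Eno1 measured 424, 395 and 373 CPM in CDs, 371, 481 and 368 CPM in Model and 304, 301 and 328 CPM in Blank. The Model libraries were all above Blank, by a small margin (Model against Blank log2 fold change 0.39 ± 0.14 SE, edgeR adjusted p = 0.0451). Eno2, the form used as a neuronal and neuroendocrine marker, measured 18.4, 23.3 and 17.7 CPM in CDs, 15.9, 29.6 and 22.9 CPM in Model and 7.39, 8.23 and 7.23 CPM in Blank. Eno2 separated the libraries of DSS-treated mice from Blank without overlap (Model against Blank log2 fold change 1.58 ± 0.23 SE, edgeR adjusted p = 0.00103). Among 9 neuron and glia markers 8 also rose, and their sum was 123.4 to 210.7 CPM in Model and 47.2 to 71.4 CPM in Blank. Of 7 enteroendocrine markers 4 rose, with sums of 679.5 to 942.4 CPM in Model and 417.9 to 530.4 CPM in Blank. The part of these cells in the result was not tested. Pkm, the pyruvate kinase of most tissues other than liver, was not called (log2 fold change 0.29 ± 0.16 SE, edgeR adjusted p = 0.171).

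The lactate dehydrogenase subunits parted. Ldhb encodes the heart subunit, which favours the conversion of lactate back to pyruvate, and measured 12.5, 18.2 and 11.03 CPM in CDs, 16.3, 32.6 and 15.8 CPM in Model and 6.75, 6.86 and 12.8 CPM in Blank. Model 2 was far above the other Model libraries, and CDs overlapped both other groups (Model against Blank log2 fold change 1.30 ± 0.37 SE, edgeR adjusted p = 0.0208). Ldha measured 632, 741 and 713 CPM in CDs, 681, 744 and 568 CPM in Model and 623, 659.6 and 755 CPM in Blank. The Ldha groups overlapped, and Ldha was not called (Model against Blank log2 fold change -0.03 ± 0.15 SE, edgeR adjusted p = 0.874). Ldhb made up 4.80% to 8.45% of the lactate dehydrogenase members per length in Model and 2.15% to 3.46% in Blank.

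Main and minor isozymes were also counted apart. When the member with the highest mean Blank FPKM was taken at each of 11 steps, 1 of these main transcripts rose (Eno1), 1 fell (Pfkl) and 9 were not called, with log2 fold changes from -0.59 to 0.39. Of the other 12 glycolytic members, which include the transporters and the Pfkfb enzymes, 7 rose and 1 fell. Of all tested genes 24.5% rose and 19.6% fell. The choice of main transcripts used the same Blank values as the comparison, so these counts describe the split and do not test it. For phosphofructokinase the choice depended on the group, since Pfkp (log2 fold change -0.06, not called) exceeded Pfkl in FPKM in every Model library. On ratios of FPKM within a step, Hk3 to Hk1, Pfkp to Pfkl, Pfkm to Pfkl, Pfkfb3 to Pfkfb4, Eno2 to Eno1 and Slc2a3 to Slc2a1 were higher in every Model library than in any Blank library, and Aldoc to Aldoa and Ldha to Ldhb were lower. The exact permutation test, two-sided, gave p = 0.1 for each, the smallest p that 3 against 3 allows, and 0.225 after adjustment over the 36 ratio tests.

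**Figure D2:**
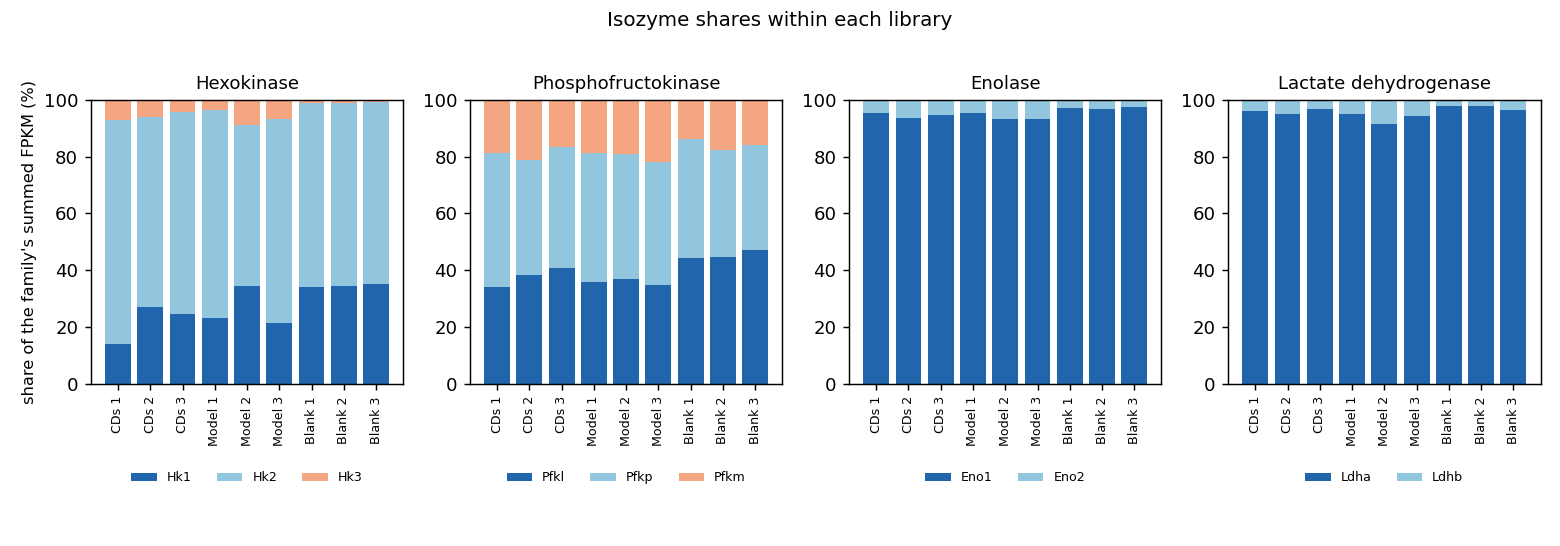
Percent that each member takes of the summed FPKM of the members in its isozyme family. Stacked bars, 1 bar per library, show CDs, Model and Blank from left to right. Genes outside the 37 members, such as Eno3 among the enolases, are not in the sums. Hk3, Pfkp, Eno2 and Ldhb take larger shares in Model than in Blank, while Hk2, Eno1 and Ldha remain the main members in every library and Pfkp exceeds Pfkl outside Blank.

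Call stability differed among the glycolytic members. Slc2a1, Eno1 and Aldoc were near the threshold, and their adjusted p ranged from 0.0205 to 0.226, from 0.00363 to 0.259 and from 0.00583 to 0.192 over 20 alternative fits. Slc2a1 lost its call without Blank 1, Blank 2, Model 1, Model 2 or CDs 3, Eno1 without any 1 Blank library, Model 2, CDs 2 or CDs 3, and Aldoc without any 1 Blank library, Model 1, Model 3 or CDs 2. Ldhb lost its call without Blank 1 or Blank 2 (log2 fold changes of 1.15 in both fits) or without Model 2 (0.86), with adjusted p between 0.00214 and 0.0900 over the alternatives. The count of raised glycolytic members was 5 without Blank 1, Blank 2 or Model 2, and that of lowered members was 1 without any 1 Blank library, Model 1, Model 3 or CDs 2. Without both Blank libraries with most prostate transcripts, Blank 1 is left alone to be assumed to vary like the other groups. All glycolytic calls except those of Hk3, Pfkfb3 and Eno2 were then lost, and calls were also fewer among all tested genes. Slc2a1, Slc2a3, Eno1, Ldhb and Slc16a3 stood at 0.34, 1.92, 0.42, 1.68 and 2.04, and Pfkl and Aldoc at -0.53 and -0.98. Without the libraries with pancreatic transcripts, which leaves Model 2 alone in its group, Ldhb and Slc16a3 stood at 1.89 and 2.81, Aldoc, at -0.31, was not called, and Gapdh, Pgk1 and Pkm were called higher at 0.63, 0.55 and 0.60, with adjusted p over the alternatives of 0.0147 to 0.722, 0.00778 to 0.762 and 0.00410 to 0.585. Hk3, Pfkfb3 and Eno2 kept their calls in all 20 alternatives.

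Markers of several cell types rose beside these members. Of 10 neutrophil markers 9 rose in Model against Blank, and of 10 macrophage markers all rose, with summed levels of 1855 to 2400 CPM in Model and 560.7 to 728.2 CPM in Blank. Model 2, the library with the highest neutrophil sum, was the highest Model library for 7 of the 8 raised glycolytic members, the exception being Pfkfb3. CDs 1, the CDs library with the highest neutrophil sum, was the highest CDs library for 5 of the 8. The macrophage sum was instead highest in Model 3 (2399.8 CPM, 2388.4 in Model 2) and in CDs 2 (2865 CPM, 2769.1 in CDs 1). The sums of fibroblast markers (11570 CPM) and of neuron and glia markers (210.65 CPM) were also highest in Model 2 among Model libraries. The endothelial sum was nearly equal in Model 2 and Model 3 (679.76 and 679.92 CPM). A peak in Model 2 was thus not particular to neutrophil markers. Of 8 fibroblast markers and 8 endothelial markers all rose, beside 24.5% of all tested genes. Of 12 epithelial markers 2 fell, beside 19.6% of all tested genes. Model lay wholly below Blank for 7 of the 12, beside 31.0% of all tested genes, and 11 had negative log2 fold changes. The part of these cells in the members' values was not tested.

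Of the 14 oxygen-sensing and HIF target members, 6 rose (42.9%) and 1 fell (7.14%) in Model against Blank, beside the same 24.5% and 19.6% of all tested genes. Hif1a, Epas1, Adm, Bnip3, Ddit4 and P4ha2 rose, and Pdk1 fell. Model lay wholly above Blank for 6 members and wholly below for 1, beside 30.0% and 31.0% of all tested genes. The 7 others were not called, with log2 fold changes of -0.19 to 0.49. The median over the 14 members was 0.38, beside -0.03 over all tested genes.

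HIF binds the core letters ACGTG or GCGTG. Promoters (250 bases before to 50 after an annotated start, RefSeq, GRCm38.p6) were found for 34 of the 37 members, and none was found for Epas1, Ndrg1 or Slc2a3. The core letters, read on both strands, were present in 11 of 13 promoters of the oxygen-sensing and HIF target members (84.6%) and in 27 of 34 glycolytic promoters (79.4%), beside 14380 of all 32851 promoters in the table (43.8%). These sets also differed in base composition, with mean GC contents of 64.7%, 60% and 53.8%. Both core forms contain the letters CG, whose median count per promoter was 25, 19 and 7 in the same order. The part of base composition in the match rates was not tested. The core overlaps the E-box CACGTG, which was present in 2 of the 13, 3 of the 34 and 2349 of all promoters. A match shows letters and not binding, and neither binding nor chromatin was measured. Printed here are promoters of Hk3, Pfkfb3, Slc16a3 and Eno2, the 4 glycolytic members with an entry that had the largest changes, of Hif1a as the HIF subunit, of Bnip3, P4ha2 and Ddit4 as targets with small p in the CDs comparison given later, and of Pdk1, the HIF target that fell. Pfkfb3 and Pdk1 each have 2 entries, of which the one with more matches is shown. Capitals mark the core letters or their complements CACGT and CACGC, and each is written 5′ to 3′ on the strand of the gene.
Hk3 promoter, chr13:55021336-55021635, minus strand: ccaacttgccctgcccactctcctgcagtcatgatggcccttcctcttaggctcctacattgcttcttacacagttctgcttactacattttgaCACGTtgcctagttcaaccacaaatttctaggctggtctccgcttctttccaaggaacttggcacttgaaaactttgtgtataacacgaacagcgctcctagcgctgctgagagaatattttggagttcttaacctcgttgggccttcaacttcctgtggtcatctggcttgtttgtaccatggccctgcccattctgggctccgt
Pfkfb3 promoter, chr2:11502041-11502340, minus strand: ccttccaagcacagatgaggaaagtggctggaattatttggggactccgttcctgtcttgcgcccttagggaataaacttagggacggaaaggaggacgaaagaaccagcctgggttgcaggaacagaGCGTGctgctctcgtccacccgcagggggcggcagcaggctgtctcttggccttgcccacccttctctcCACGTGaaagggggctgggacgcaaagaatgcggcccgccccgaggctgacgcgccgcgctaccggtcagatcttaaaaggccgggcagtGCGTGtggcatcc
Slc16a3 promoter, chr11:120948817-120949116, plus strand: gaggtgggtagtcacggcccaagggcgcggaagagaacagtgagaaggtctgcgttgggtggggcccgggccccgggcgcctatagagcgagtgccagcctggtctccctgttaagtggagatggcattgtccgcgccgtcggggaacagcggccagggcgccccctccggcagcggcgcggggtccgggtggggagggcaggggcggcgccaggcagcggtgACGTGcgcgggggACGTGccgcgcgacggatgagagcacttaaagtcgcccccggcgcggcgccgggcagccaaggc
Eno2 promoter, chr6:124769624-124769923, minus strand: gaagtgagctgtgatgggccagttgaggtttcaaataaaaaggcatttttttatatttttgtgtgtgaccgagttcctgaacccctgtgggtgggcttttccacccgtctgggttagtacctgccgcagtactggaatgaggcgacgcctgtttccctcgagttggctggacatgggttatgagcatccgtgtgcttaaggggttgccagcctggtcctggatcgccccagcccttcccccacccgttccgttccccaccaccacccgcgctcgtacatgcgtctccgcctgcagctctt
Hif1a promoter, chr12:73907617-73907916, plus strand: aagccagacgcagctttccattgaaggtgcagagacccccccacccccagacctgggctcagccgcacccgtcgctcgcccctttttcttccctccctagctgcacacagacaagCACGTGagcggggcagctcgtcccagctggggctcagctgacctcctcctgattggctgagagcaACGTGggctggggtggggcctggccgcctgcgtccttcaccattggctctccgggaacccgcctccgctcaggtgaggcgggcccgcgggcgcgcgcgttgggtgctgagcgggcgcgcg
Bnip3 promoter, chr7:138909457-138909756, minus strand: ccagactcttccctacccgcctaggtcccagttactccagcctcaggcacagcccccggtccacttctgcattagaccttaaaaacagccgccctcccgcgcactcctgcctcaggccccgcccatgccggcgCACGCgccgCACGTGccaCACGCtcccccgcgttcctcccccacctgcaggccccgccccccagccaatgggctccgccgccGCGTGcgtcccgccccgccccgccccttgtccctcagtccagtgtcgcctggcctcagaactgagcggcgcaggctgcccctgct
P4ha2 promoter, chr11:54100674-54100973, plus strand: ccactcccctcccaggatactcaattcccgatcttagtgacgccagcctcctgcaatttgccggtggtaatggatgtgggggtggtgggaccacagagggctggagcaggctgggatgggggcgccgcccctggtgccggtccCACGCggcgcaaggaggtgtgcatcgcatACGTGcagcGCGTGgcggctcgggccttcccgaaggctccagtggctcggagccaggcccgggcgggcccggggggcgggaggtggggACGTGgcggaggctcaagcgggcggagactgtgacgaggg
Ddit4 promoter, chr10:59951721-59952020, minus strand: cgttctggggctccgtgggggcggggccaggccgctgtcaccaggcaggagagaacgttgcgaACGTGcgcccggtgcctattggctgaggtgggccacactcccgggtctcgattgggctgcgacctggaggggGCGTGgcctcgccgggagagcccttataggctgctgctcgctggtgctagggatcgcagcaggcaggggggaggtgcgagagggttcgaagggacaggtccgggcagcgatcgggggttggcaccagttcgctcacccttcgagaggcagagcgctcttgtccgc
Pdk1 promoter, chr2:71872974-71873273, plus strand: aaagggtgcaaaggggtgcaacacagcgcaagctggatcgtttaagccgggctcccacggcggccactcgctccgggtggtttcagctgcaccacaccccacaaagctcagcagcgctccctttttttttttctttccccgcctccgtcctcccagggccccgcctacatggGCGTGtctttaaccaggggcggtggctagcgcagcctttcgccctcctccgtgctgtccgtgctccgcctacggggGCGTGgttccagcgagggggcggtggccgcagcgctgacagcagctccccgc
Matches numbered 5 in Bnip3, 4 in Pfkfb3, 4 in P4ha2, 3 in Hif1a, 2 each in Slc16a3, Ddit4 and Pdk1 and 1 in Hk3, and 0 in Eno2. The E-box CACGTG is counted on each strand. In Bnip3, Pfkfb3 and Hif1a, 1 marked stretch CACGTG thus stands for 2 of these matches. The entries not shown held 1 match for Pfkfb3 and 0 for Pdk1.

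Hif1a and Epas1 encode the alpha subunits HIF-1α and HIF-2α, which pair with a constant partner to bind DNA. Hif1a measured 573, 396 and 417 CPM in CDs, 466, 441 and 456 CPM in Model and 248, 239 and 244 CPM in Blank. The Model libraries were nearly equal, CDs 1 was the highest of all, and both DSS-treated groups lay above Blank (Model against Blank log2 fold change 0.90 ± 0.15 SE, edgeR adjusted p = 0.00208). Hif1a shares 9878 positions with Snapc1l on the same strand in the deposited coordinates. Epas1 measured 308, 324 and 263 CPM in CDs, 289, 353 and 313 CPM in Model and 212, 187 and 195 CPM in Blank. Epas1 also separated both DSS-treated groups from Blank (Model against Blank log2 fold change 0.68 ± 0.13 SE, edgeR adjusted p = 0.00318). The prolyl hydroxylases that mark HIF were not called. Egln1, the main form, averaged 70.9 ± 5.70 CPM in Model and 74.2 ± 1.57 CPM in Blank (log2 fold change -0.07 ± 0.14 SE, edgeR adjusted p = 0.727), and Egln3, itself a HIF target, averaged 91.3 ± 17.9 CPM in Model and 65.1 ± 19.1 CPM in Blank (log2 fold change 0.49 ± 0.26 SE, edgeR adjusted p = 0.155; SD, n = 3 each).

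Pdk1 encodes a kinase that keeps pyruvate out of the mitochondrial citric acid cycle and is a HIF-1 target. Pdk1 measured 51.5, 70.7 and 65.1 CPM in CDs, 65.6, 77.2 and 59.1 CPM in Model and 102, 103 and 89.2 CPM in Blank. The libraries of both DSS-treated groups lay below all Blank libraries (Model against Blank log2 fold change -0.54 ± 0.14 SE, edgeR adjusted p = 0.0154), against the direction of the other called HIF targets. The call was lost without Blank 1, Blank 2 or Model 3 (log2 fold changes of -0.50, -0.50 and -0.45), and its adjusted p ranged from 0.00451 to 0.113 over 20 alternative fits. The carbonic anhydrases Car9 and Car12, membrane enzymes that regulate pH outside the cell and textbook HIF targets, were not called (log2 fold change -0.06 ± 0.23 SE, edgeR adjusted p = 0.848 and log2 fold change -0.19 ± 0.41 SE, edgeR adjusted p = 0.724). Car9 averaged 34.8 ± 5.69 CPM in Model and 36.3 ± 1.94 CPM in Blank, and Car12 averaged 31.1 ± 12.8 CPM in Model and 35.4 ± 18.4 CPM in Blank (SD, n = 3 each).

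Adm encodes adrenomedullin, a peptide that dilates vessels and supports the endothelial barrier. Adm measured 13.0, 10.8 and 7.65 CPM in CDs, 10.8, 18.7 and 10.7 CPM in Model and 4.37, 2.68 and 5.31 CPM in Blank. Model 2 was the highest library and no library of a DSS-treated mouse reached down to Blank (Model against Blank log2 fold change 1.70 ± 0.33 SE, edgeR adjusted p = 0.00398). Bnip3, a mitochondrial protein that promotes mitophagy, measured 17.5, 23.1 and 17.1 CPM in CDs, 22.2, 50.6 and 23.0 CPM in Model and 7.52, 8.44 and 10.2 CPM in Blank. Model 2 held more than 2 times the level of the other Model libraries, and those 2 lay within the range of CDs (Model against Blank log2 fold change 1.88 ± 0.33 SE, edgeR adjusted p = 0.00241). P4ha2, which hydroxylates proline in collagen, measured 13.1, 12.7 and 11.8 CPM in CDs, 11.5, 28.3 and 19.4 CPM in Model and 7.20, 8.92 and 8.93 CPM in Blank. P4ha2 was spread widely in Model and closely in CDs, and both groups lay above Blank (Model against Blank log2 fold change 1.25 ± 0.28 SE, edgeR adjusted p = 0.00811).

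Ddit4 encodes REDD1, an inhibitor of mTORC1 signalling that is induced by hypoxia, glucocorticoids and other stresses. Ddit4 measured 73.2, 44.2 and 34.2 CPM in CDs, 66.7, 181 and 74.7 CPM in Model and 41.7, 45.6 and 42.0 CPM in Blank. Model 2 stood far above every other library, the other Model libraries still lay above Blank, and CDs overlapped Blank (Model against Blank log2 fold change 1.32 ± 0.40 SE, edgeR adjusted p = 0.0259). Leaving out Model 2 gave 0.72 on the log2 scale and ended the call, as did leaving out any 1 Blank library, and the adjusted p ranged from 4.73e-05 to 0.215 over 20 alternative fits. Ndrg1, a stress-induced gene of differentiated epithelium, Ankrd37 and Higd1a, a mitochondrial protein, were not called, with log2 fold changes of 0.26, -0.11 and -0.02. Ankrd37 averaged 3.98 ± 2.56 CPM in Model and 4.37 ± 1.84 CPM in Blank, and Higd1a averaged 69.2 ± 15.6 CPM in Model and 70.2 ± 30.2 CPM in Blank (SD, n = 3 each). Without the libraries with pancreatic transcripts Ddit4 stood at 2.06 and Bnip3 at 2.53, Pdk1, at -0.35, was not called, and Ndrg1 was called higher at 0.48, with adjusted p of 0.0257 to 0.771 over the alternatives. Without both Blank libraries with most prostate transcripts, which left Blank 1 alone in its group, every call among the oxygen-sensing and HIF target members was lost. Calls were also fewer among all tested genes in that fit. Hif1a, Epas1, Adm, Bnip3, Ddit4, P4ha2 and Pdk1 then stood at 0.88, 0.59, 1.62, 2.09, 1.37, 1.46 and -0.60. Model 2 was the highest Model library for 5 of the 6 raised members, Hif1a being the exception. Fibroblasts make collagen and endothelium makes adrenomedullin; the part of these cells in the P4ha2 and Adm values was not tested.

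**Figure D3:**
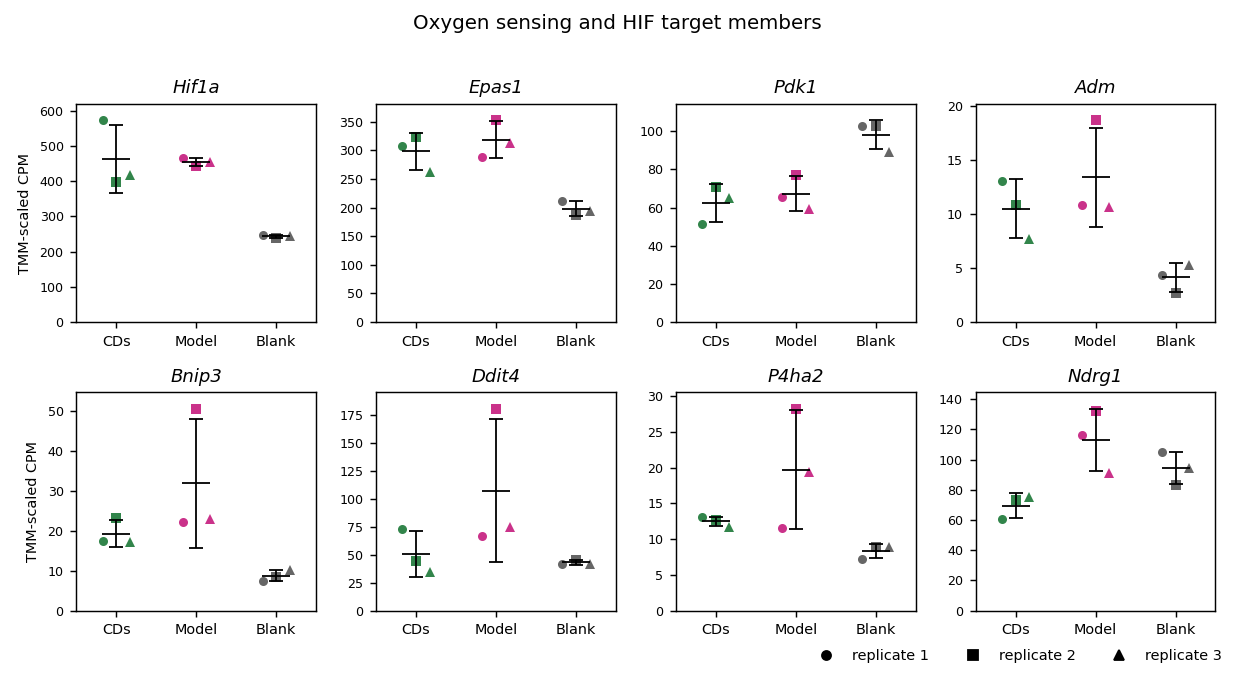
TMM-scaled CPM of the 7 oxygen-sensing and HIF target members called in Model against Blank, and of Ndrg1, by group (CDs, Model, Blank). Symbols are single libraries, shaped by replicate number, and bars give the mean and SD. Hif1a and Epas1 separate Blank from both groups given DSS, Ddit4 is farthest from the rest in Model 2 at 181 CPM, and Ndrg1 is lower in every CDs library than in any Model library.

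The second comparison, CDs against Model, addresses what the carbon dots did in mice given DSS. By edgeR 0 members were called, beside 0 of all 14921 tested genes (0%), and the smallest adjusted p of a member was 0.891. At an unadjusted p under 0.05 stood 1 of 23 glycolytic members, on the higher side, and 4 of 14 oxygen-sensing and HIF target members, on the lower side, beside 1.53% of all tested genes higher and 3.75% lower. DESeq2 called 1 member, Ndrg1, among 5 genes higher and 45 lower. The median log2 fold change was -0.03 over the glycolytic members and -0.15 over the others, beside 0.02 over all tested genes.

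The 5 members with the smallest p were Ndrg1, Ddit4, P4ha2, Pfkfb4 and Bnip3. Ndrg1 measured 60.4, 73.2 and 75.0 CPM in CDs, 116, 132 and 91.0 CPM in Model and 105, 83.3 and 94.7 CPM in Blank. It was the single member for which CDs and Model did not overlap, beside 4.77% of all tested genes with CDs wholly below Model and 3.22% wholly above. Its log2 fold change of -0.70 ± 0.16 had an unadjusted p of 0.00146 and an adjusted p of 0.891 by edgeR. DESeq2 gave -0.73 with an adjusted p of 0.0187, and the adjusted p ranged from 0.0178 to 1 over 20 alternatives. The values of Ddit4, P4ha2 and Bnip3 are given above, and in each the highest Model library was Model 2. Their log2 fold changes were -1.09 ± 0.39 for Ddit4 (95% interval -1.98 to -0.20), -0.66 ± 0.28 for P4ha2 (-1.29 to -0.04) and -0.73 ± 0.31 for Bnip3 (-1.44 to -0.03). Without Model 2 these were -0.48, -0.31 and -0.23. Pfkfb4 measured 30.8, 35.3 and 46.6 CPM in CDs, 31.9, 25.3 and 28.3 CPM in Model and 30.4, 32.9 and 37.7 CPM in Blank. Its libraries overlapped between CDs and Model, at a log2 fold change of 0.40 ± 0.17 (0.02 to 0.78).

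The intervals limit how large a difference could have been. The 95% interval lay within a 2-fold difference either way for 20 of 23 glycolytic members, the exceptions being Hk2 (-0.23 to 1.04 on the log2 scale), Ldhb (-1.44 to 0.18) and Slc16a3 (-1.08 to 0.50). It did so for 7 of the 14 oxygen-sensing and HIF target members, the exceptions being Car12, Adm, Ankrd37, Bnip3, Ndrg1, Ddit4 and P4ha2. Among members that rose most in Model, the log2 fold change of CDs against Model was 0.31 ± 0.27 for Hk3 (-0.31 to 0.93), 0.04 ± 0.28 for Pfkfb3 (-0.59 to 0.67) and -0.11 ± 0.34 for Slc2a3 (-0.88 to 0.66). For Hif1a it was 0.02 ± 0.15 (-0.31 to 0.36). None of the isozyme ratios separated CDs from Model. The ratio of Hk2 to Hk1 was 5.73, 2.48 and 2.92 in CDs, 3.17, 1.65 and 3.34 in Model and 1.89, 1.86 and 1.82 in Blank. It separated CDs from Blank (exact permutation p = 0.1, adjusted 0.225) and did not separate Model from Blank. The ratios that separated Model from Blank above also separated CDs from Blank with the same p, except Ldha to Ldhb.

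Calls between CDs and Model depended on the libraries with pancreatic transcripts. Without Model 1, Model 3 and CDs 1, 752 of all tested genes were higher and 489 lower in CDs, and the members Slc2a3, Slc16a3, Bnip3, Ndrg1, Ddit4 and P4ha2 were called lower, with log2 fold changes of -0.98, -1.24, -1.33, -0.83, -2.199 and -1.21. That fit sets CDs 2 and CDs 3 against Model 2 alone, the library with the highest neutrophil sum, and assumes that it varies like the other groups. These 6 calls were absent from the fit of all 9 libraries.

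**Figure D4:**
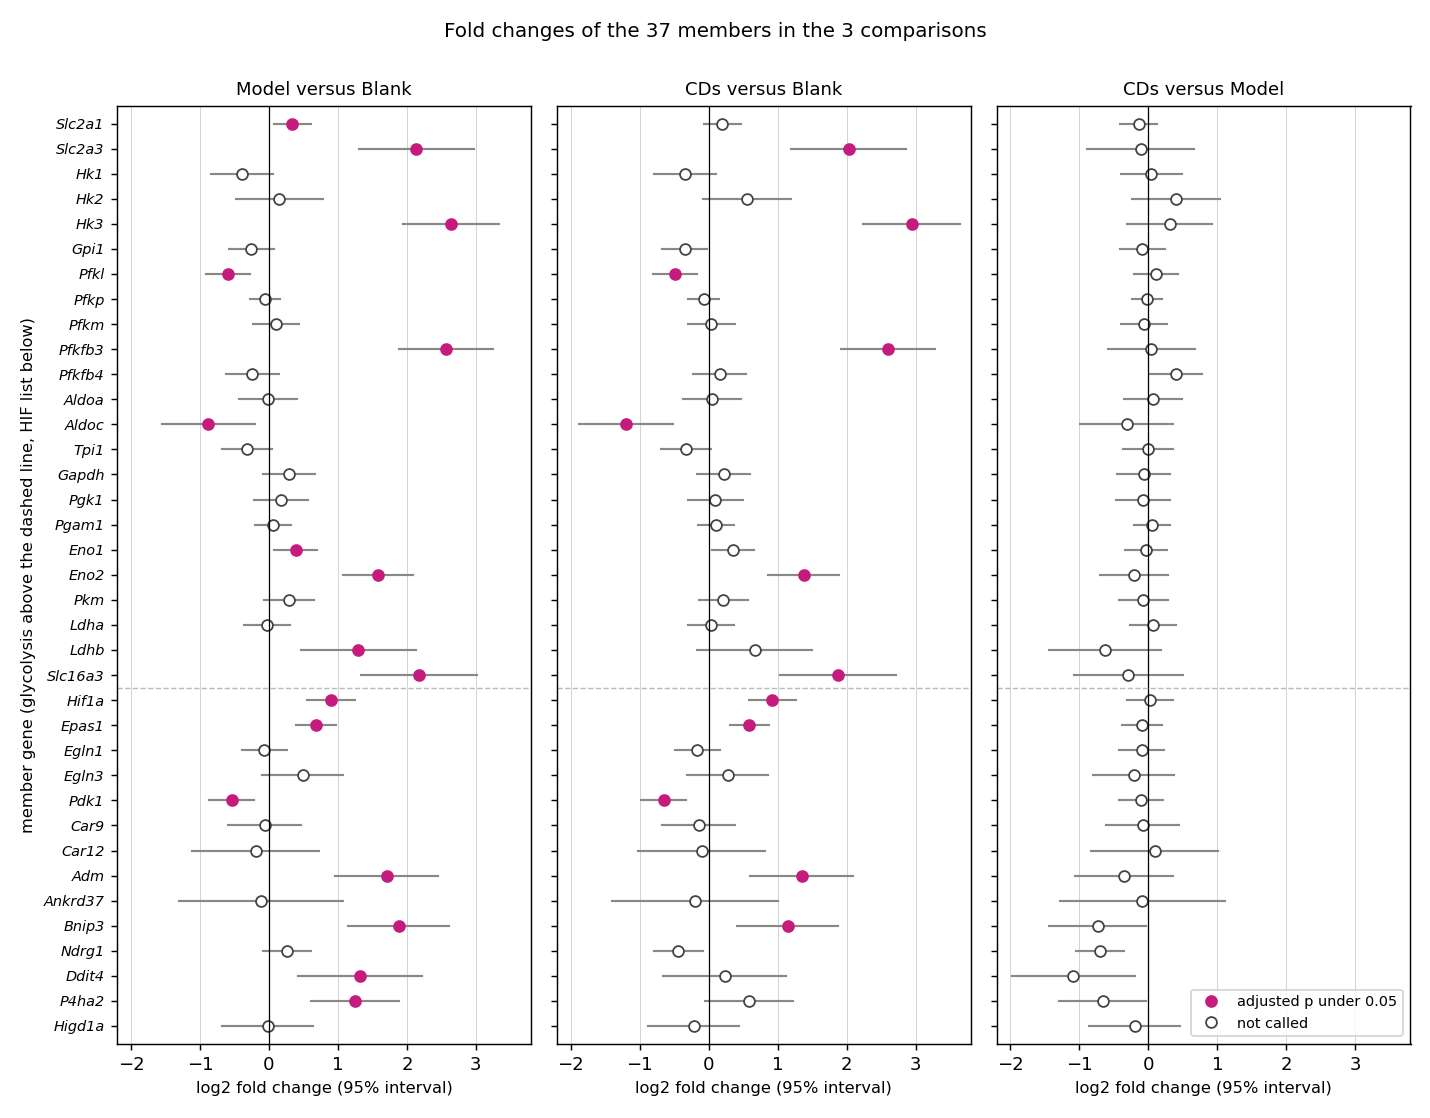
Log2 fold changes (horizontal axis, points) with 95% intervals (lines) of the 37 members, 1 panel for each of the 3 comparisons, with glycolytic members above the dashed line and oxygen-sensing and HIF target members below it. Filled points passed an adjusted p of 0.05. In Model against Blank, Hk3 (2.64), Pfkfb3 (2.56), Slc16a3 (2.17) and Slc2a3 (2.14) lie farthest to the right, and in CDs against Model the intervals of most members cross 0.

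The third comparison, CDs against Blank, shares its Blank libraries with the first. Of the glycolytic members 5 rose (Slc2a3, Hk3, Pfkfb3, Eno2 and Slc16a3) and 2 fell (Pfkl and Aldoc), that is 21.7% and 8.70%, beside 21.8% and 13.8% of all tested genes. Of the oxygen-sensing and HIF target members 4 rose (Hif1a, Epas1, Adm and Bnip3) and 1 fell (Pdk1), that is 28.6% and 7.14%. The largest were Hk3 (log2 fold change 2.95 ± 0.31 SE, edgeR adjusted p = 5.02e-04) and Pfkfb3 (log2 fold change 2.60 ± 0.30 SE, edgeR adjusted p = 6.62e-04), and the lowest was Aldoc (log2 fold change -1.19 ± 0.30 SE, edgeR adjusted p = 0.0154). The 5 members called in Model against Blank and not here were Slc2a1 (0.20 in CDs against Blank), Eno1 (0.35), Ldhb (0.67), Ddit4 (0.23) and P4ha2 (0.58), and none of them was called in CDs against Model. Pfkl lost its call without any 1 Blank library or CDs 2, and Bnip3 without Blank 1, Blank 2 or CDs 2, with adjusted p of 0.00676 to 0.260 and 0.00208 to 0.172 over 20 alternative fits. Ndrg1 gained a call without Model 2 or Model 3, which makes 2 lowered HIF members, with adjusted p of 0.0278 to 0.166 over the alternatives. Eno1 gained one without Model 2, with DESeq2, with 2 groups only and without the libraries with pancreatic transcripts, at adjusted p of 0.0343 to 0.333 over the alternatives. P4ha2 gained one without Model 1, with 2 groups only and without the libraries with pancreatic transcripts, at adjusted p of 0.0266 to 0.315. Without both Blank libraries with most prostate transcripts, which left Blank 1 alone in its group, Hk3 alone of the members kept its call. Calls were also fewer among all tested genes in that fit. Pfkfb3, Hif1a and Epas1 then stood at 2.51, 0.90 and 0.49. Summed neutrophil and macrophage markers were 584.8 to 1289 and 2274 to 2865 CPM in CDs, against 77.1 to 94.8 and 560.7 to 728.2 CPM in Blank.

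Other genes of the same pathways were read from lists beyond the members. Of 27 tested isozymes and gluconeogenic genes, 3 rose (11.1%) and 11 fell (40.7%) in Model against Blank, beside 24.5% and 19.6% of all tested genes (median log2 fold change -0.44). Highest among those that rose were Slc2a6 (log2 fold change 1.47 ± 0.38 SE, edgeR adjusted p = 0.0143), a lysosomal glucose transporter of macrophages, Pdk4 (log2 fold change 1.10 ± 0.40 SE, edgeR adjusted p = 0.0488), a pyruvate dehydrogenase kinase induced by fasting, and Slc2a4 (log2 fold change 0.80 ± 0.25 SE, edgeR adjusted p = 0.0298), the insulin-regulated transporter of muscle and fat. Among those that fell were Fbp1 (log2 fold change -2.91 ± 0.49 SE, edgeR adjusted p = 0.00217), an enzyme of gluconeogenesis, and Slc2a5 (log2 fold change -1.63 ± 0.47 SE, edgeR adjusted p = 0.0219), the fructose transporter of absorptive epithelium. Epithelial markers summed to 6311 to 10720 CPM in Model and 11130 to 13710 CPM in Blank beside these falls, and their part was not tested. The count of raised genes was 1 without Blank 1, Blank 2 or Model 3, and that of lowered genes was 6 without Model 2 or Model 3 and 7 without Blank 1.

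Of 34 tested further genes of the hypoxia response, 10 rose (29.4%) and 3 fell (8.82%) in Model against Blank, beside 24.5% and 19.6% of all tested genes (median log2 fold change 0.18). Angptl4, an inhibitor of lipoprotein lipase, measured 35.8, 26.1 and 18.6 CPM in CDs, 33.3, 44.2 and 48.9 CPM in Model and 1.80, 1.51 and 1.55 CPM in Blank. All libraries of DSS-treated mice were far above Blank (Model against Blank log2 fold change 4.69 ± 0.29 SE, edgeR adjusted p = 1.45e-04). The collagen cross-linking enzymes Lox (log2 fold change 3.70 ± 0.50 SE, edgeR adjusted p = 8.02e-04) and Plod2 (log2 fold change 2.17 ± 0.20 SE, edgeR adjusted p = 2.69e-04) followed. The 3 that fell were Tfrc, the transferrin receptor (log2 fold change -0.78 ± 0.16 SE, edgeR adjusted p = 0.00461), the histone demethylase Kdm3a (log2 fold change -0.47 ± 0.13 SE, edgeR adjusted p = 0.0190) and Hif1an, the asparaginyl hydroxylase that inhibits HIF (log2 fold change -0.46 ± 0.09 SE, edgeR adjusted p = 0.00478). Without CDs 1, 5 of these genes fell. In CDs against Model none of the genes of either list was called. In CDs against Blank, 2 isozyme or gluconeogenic genes rose (7.41%) and 8 fell (29.6%), and 8 further hypoxia genes rose (23.5%) and 6 fell (17.6%), beside 21.8% and 13.8% of all tested genes. The lowered isozyme or gluconeogenic genes numbered 5 without Blank 1, Blank 3 or CDs 2 and 4 without CDs 1, and the lowered hypoxia genes 3 without Blank 2.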

How the data were processed

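Poly-A RNA of colon was sequenced in 9 libraries, grouped and numbered by their titles; replicates are called biological in the series description. The submitters' processing notes name HISAT2 2.1.0, HTSeq 0.9.1 and fastp 0.22.0. The strand setting of the counting and the build are not given in the sources used, and the deposited coordinates are used with no build. Per the labels' protocols the kit has no step that marks the strand, so genes that overlap another gene are uncertain. So are Gapdh and Eno1, which have near-identical copies in the genome.

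Read counts and FPKM values per gene were deposited by the authors, per the file headers, and FPKM equalled count divided by gene length and library total in 100% of values. The counts were tested with edgeR 4.0.16 in R 4.3.3 (quasi-likelihood F test, TMM scaling, edgeR's filter on low counts) with all 9 libraries in 1 model that had a coefficient for each group. Two-sided p-values carry the Benjamini-Hochberg adjustment over the 14921 genes tested. FPKM was used only to compare levels between genes, in isozyme ratios and shares, and in limma alternatives. The SE was taken from the fold change and its F statistic, and intervals are at 95%. Totals were 13868864 to 19940300 counts per library. Intervals and limits cover no error of PCR. The test was checked on simulated counts.

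The members and gene lists were chosen with earlier results of these data known. All 37 members were eligible to be named; of the other pathway lists, the 3 highest and the 3 lowest called genes in Model against Blank were named, and in CDs against Model the 5 members with the smallest p. A result that this rule would name is not reported here. Alternatives were DESeq2 1.42.0 (its test and its size factors), upper-quartile scaling, library size alone, no filter, limma 3.58.1 on log2 of FPKM plus 1 or plus 0.1, 2 groups only, the replicate block and each library left out. Leaving out the libraries with pancreatic and with prostate transcripts was added after seeing the data.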

Additional observations from a re-analysis of the deposited data

How the results depend on the processing

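No call reversed its direction under any of 11 alternatives or 9 fits without 1 library, and 119 of 2220 recomputed fold changes of members changed sign, none of them called in either fit. Same-numbered libraries of different groups correlated at -0.37 to 0.21 in their deviations, and differently numbered ones at -0.35 to 0.47. The labels state no pairing, and 3 libraries per group cannot settle whether the replicate numbers pair the mice. With the replicate block, 6 glycolytic members rose and 2 fell in Model against Blank, and 7 oxygen-sensing and HIF target members rose, Egln3 (log2 fold change 0.51) being added.

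On log2 of FPKM plus 1, which shrinks low genes, Slc2a3, Hk3 and Slc16a3 stood at 1.28, 1.73 and 1.49 in Model against Blank. In that comparison, library size alone left 1 lowered glycolytic member, and 2 groups only gave 6 lowered genes among the further hypoxia genes. In CDs against Blank, DESeq2 size factors, upper-quartile scaling, the DESeq2 test and 2 groups only each gave 2 lowered HIF members. In CDs against Model, DESeq2 called 5 genes higher and 45 lower, of which 1 was a HIF member. Without the libraries with pancreatic transcripts, CDs against Model gave 752 higher and 489 lower genes, with 2 glycolytic and 4 HIF members lower, and among the other pathway lists 6 isozyme or gluconeogenic genes higher and 1 lower and 6 hypoxia genes lower. That setting left 1 lowered glycolytic and 0 lowered HIF members in Model against Blank and 2 lowered HIF members in CDs against Blank. Without the 2 libraries with most prostate transcripts, Model against Blank gave 1218 higher and 318 lower genes, 3 and 0 glycolytic, 0 and 0 HIF, 0 and 1 isozyme or gluconeogenic and 5 and 0 further hypoxia genes. The same setting in CDs against Blank gave 357 and 108 genes, 1 and 0 glycolytic, 0 and 0 HIF, 0 and 1 isozyme or gluconeogenic and 1 and 0 further hypoxia genes. Both settings leave 1 library in a group, and the cause of the changes was not tested.

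Over the fits without 1 library, Model against Blank gave 1478 to 3561 lowered genes in all, 5 to 8 raised and 1 to 2 lowered glycolytic members, 0 to 1 lowered HIF members, 1 to 4 raised and 6 to 13 lowered isozyme or gluconeogenic genes and 2 to 5 lowered further hypoxia genes. CDs against Blank gave 1074 to 2229 lowered genes in all, 1 to 2 lowered glycolytic members, 1 to 2 lowered HIF members, 4 to 10 lowered isozyme or gluconeogenic genes and 3 to 6 lowered further hypoxia genes. Hk3, the glycolytic member with the lowest level, held 26 reads in its lowest library and 469 in its highest.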

Other observations

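In CDs against Model, no further hypoxia gene was called by edgeR, but 10 of the 34 tested were lower and 1 higher at an unadjusted p under 0.05, beside 3.75% and 1.53% of all tested genes. The libraries of CDs and Model did not overlap for 5 of them, all lower in CDs (named after their values were seen), beside 4.77% of all tested genes. Plod2, a collagen lysyl hydroxylase, measured 74.9, 74.1 and 71.6 CPM in CDs, 96.7, 173 and 112 CPM in Model and 29.6, 29.3 and 26.0 CPM in Blank. It lay between Blank and Model in every CDs library (log2 fold change of CDs against Model -0.79 ± 0.19 SE, edgeR adjusted p = 0.891). Ero1a, an oxidase of protein folding in the endoplasmic reticulum, measured 107, 107 and 104 CPM in CDs, 121, 178 and 115 CPM in Model and 90.9, 84.5 and 89.5 CPM in Blank. Ppp1r3c, a glycogen-targeting phosphatase subunit, averaged 19.0 ± 2.54 CPM in CDs, 25.3 ± 2.66 CPM in Model and 9.15 ± 0.801 CPM in Blank (SD, n = 3 each). Vegfa, the endothelial growth factor, measured 71.2, 77.1 and 77.8 CPM in CDs, 81.8, 98.6 and 93.1 CPM in Model and 95.6, 92.8 and 95.04 CPM in Blank, so that CDs lay below both other groups. Stc2, a secreted glycoprotein, was the last of the 5 (-0.64 ± 0.23 SE, edgeR adjusted p = 0.927). None of these differences passed the threshold. Erythroid markers also parted, with sums of 17.8 to 35.6 CPM in CDs and 81.6 to 409.4 CPM in Model, and their part in these values was not tested.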
